A study of Mus musculus with 6 samples.

Results

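The genes described here are 30 named enzymes and regulators of sterol and fatty acid synthesis in mouse colon. They were chosen by name, and all 30 were found, each as a single row, among the 54532 genes of the deposited table. They comprise 7 enzymes of the mevalonate arm, 12 enzymes between squalene and cholesterol, 4 regulators or sterol carriers and 7 fatty acid enzymes. The samples were 3 colon libraries labelled Il10 knockout (genotype IL10-/-) and 3 labelled wild type (WT). All came from C57BL/6 mice at postnatal day 56, with no treatment named. Total RNA was taken from flash-frozen colons, and the comparison sets the knockout genotype against WT. Interleukin 10 restrains immune responses, and mice lacking it everywhere in the body are used as a model of chronic colitis. Neither the targeted allele nor the degree of inflammation is given in the sources used here. Whether each library stands for a different mouse is not given in the sources used here, so a p-value reflects only how much these libraries vary.

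Cells build cholesterol from acetyl-CoA, first through mevalonate to farnesyl diphosphate and then through squalene and lanosterol. Fatty acids are made from the same acetyl-CoA by carboxylation, repeated condensation, elongation and desaturation. The transcription factors SREBP1 and SREBP2 drive both routes and are held in the endoplasmic reticulum by INSIG proteins when sterol is plentiful. The renewing epithelium of the gut uses both routes to build membranes.

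Promoters of these genes are known for sterol regulatory elements and for CCAAT boxes bound by NF-Y. RefSeq windows (GRCm38.p6) from 250 bases before to 50 after the start were at hand for 24 of the 30 genes, and the first listed window of each gene was searched on both strands. CCAAT was found in 20 of the 24 windows (83.3%), against 37.9% of 27025 windows of all genes and 38.1% of 9076 windows of genes that entered the test below. The GC box letters GGGCGG were in 18 of 24 windows (75.0%), against 64.4% of the windows of tested genes. The E-box CACGTG was in 4 windows (16.7%), those of Hsd17b7, Insig1, Sc5d and Elovl5, against 10.1% of the windows of tested genes. Letters of a sterol regulatory element were in 2 windows, searched only as the 2 strings named next, with no mismatch allowed. Elements spelled otherwise were not counted. Hmgcs1 held TCACNCCAC, which 1.06% of windows of tested genes hold, and Srebf2 held the overlapping ATCACNCCA, which 0.529% hold. A match is a description of letters and not a binding site. The stretches below lie within 200 bases before the start and are shown because they hold these matches. Hmgcs1 and Srebf2 carry the sterol element letters, Mvd and Ebp a pair of CCAAT boxes each, and Sc5d an E-box. They are written 5′ to 3′ on the gene's strand, with matches to the 5 searched motifs on either strand in capitals where they lie wholly within the stretch. CCAAT reads ATTGG, and GGGCGG reads CCGCCC, on the other strand. A GC box of Sc5d that begins at position -3 runs past the end of its stretch and is not marked.
Hmgcs1 (chr13:119690151-119690350, plus strand): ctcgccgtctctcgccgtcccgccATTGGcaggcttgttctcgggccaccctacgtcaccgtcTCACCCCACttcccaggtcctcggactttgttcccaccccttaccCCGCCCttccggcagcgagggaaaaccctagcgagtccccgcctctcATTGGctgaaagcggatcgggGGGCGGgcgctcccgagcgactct
Srebf2 (chr15:82147069-82147180, plus strand): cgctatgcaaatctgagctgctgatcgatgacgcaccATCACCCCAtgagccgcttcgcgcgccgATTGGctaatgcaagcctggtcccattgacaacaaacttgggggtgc
Mvd (chr8:122443423-122443622, minus strand): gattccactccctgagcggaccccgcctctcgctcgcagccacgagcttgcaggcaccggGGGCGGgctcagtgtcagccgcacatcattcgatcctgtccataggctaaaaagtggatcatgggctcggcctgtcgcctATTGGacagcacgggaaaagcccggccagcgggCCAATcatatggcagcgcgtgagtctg
Ebp (chrX:8193513-8193712, minus strand): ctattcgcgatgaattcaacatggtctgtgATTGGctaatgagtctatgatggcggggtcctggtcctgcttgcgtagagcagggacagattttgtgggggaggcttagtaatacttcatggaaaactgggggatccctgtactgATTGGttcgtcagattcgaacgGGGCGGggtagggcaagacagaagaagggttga
Sc5d (chr9:42264301-42264500, minus strand): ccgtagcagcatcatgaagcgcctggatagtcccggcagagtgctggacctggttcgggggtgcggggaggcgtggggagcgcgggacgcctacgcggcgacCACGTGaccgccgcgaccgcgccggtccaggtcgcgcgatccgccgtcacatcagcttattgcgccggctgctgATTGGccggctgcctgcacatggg

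Values are FPKM, fragments per kilobase of gene and per unit of a library size set by the authors, so levels can be compared between genes. Reads recovered from them amounted to 14235679 to 14651559 per library labelled Il10 knockout and 13107941 to 15797928 per WT library. The 3 libraries of a label did not resemble each other equally, with Pearson's r of log2 values across genes of 0.935 to 0.961 among the knockout libraries and 0.795 to 0.864 among the WT libraries. Il10 itself was at 13.8, 10.6 and 14.5 FPKM in Il10 knockout-labelled libraries 1 to 3, and at 0.757, 0.173 and 0.177 FPKM in WT libraries 1 to 3. The targeted gene thus had more RNA in knockout-labelled libraries. The values count reads over the whole gene and cannot check the labels exon by exon, so every direction here rests on the labels as given. WT library 3 stood apart in tissue composition. The 10 smooth muscle markers summed to 211 to 1274 FPKM in knockout-labelled libraries and to 1736, 1623 and 10880 FPKM in WT libraries 1 to 3. Mitochondrial genes took 8.61% to 22.0% of reads in knockout-labelled libraries and 20.3%, 11.7% and 43.4% in WT libraries 1 to 3.

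Sterol and fatty acid genes were not called different between the labels. Of the 30 genes, 29 reached an average of 1 FPKM across the libraries and entered the limma fit, which held 12668 genes in all. Of the 29, 0 passed an adjusted p of 0.05 (limma, Benjamini-Hochberg over all genes tested), and the smallest adjusted p was 0.550. Over all genes 0.182% were called, all of them higher in knockout-labelled libraries. At an unadjusted p under 0.05, 0 of the 29 passed in either direction, against 10.2% of all genes tested (6.14% higher and 4.03% lower). Voom on the recovered reads called 2 of the 12668 genes and 0 of the 29. At an unadjusted p under 0.05 it had 0 of the 29, against 10% of all genes tested. Log2 fold changes, computed from log2(FPKM + 1) with WT subtracted from knockout, lay between -0.77 for Scd1 and 0.68 for Ebp. They were positive for 19 genes and negative for 10, with a median of 0.16, against 54.1% positive and a median of 0.039 over all genes tested. The sign of that median rested on Il10 knockout library 2, without which it was -0.059 with 13 positive and 16 negative. The median was 0.30 for the squalene to cholesterol enzymes and -0.11 for the fatty acid genes. It was 0.12 for the mevalonate arm and 0.11 for the regulators. In whole colon, fewer cells of a type cannot be told apart from less RNA per cell.

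These data leave room for moderate differences. The 95% interval of the log2 fold change, unadjusted for the number of genes, lay within 1 in either direction for 14 of the 29 genes and reached further for 15. The narrowest standard error was 0.20, for Acaca, whose interval ran from -0.55 to 0.42. Elovl6 had the widest, from -1.67 to 1.27 (SE 0.62).

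**Figure D1:**
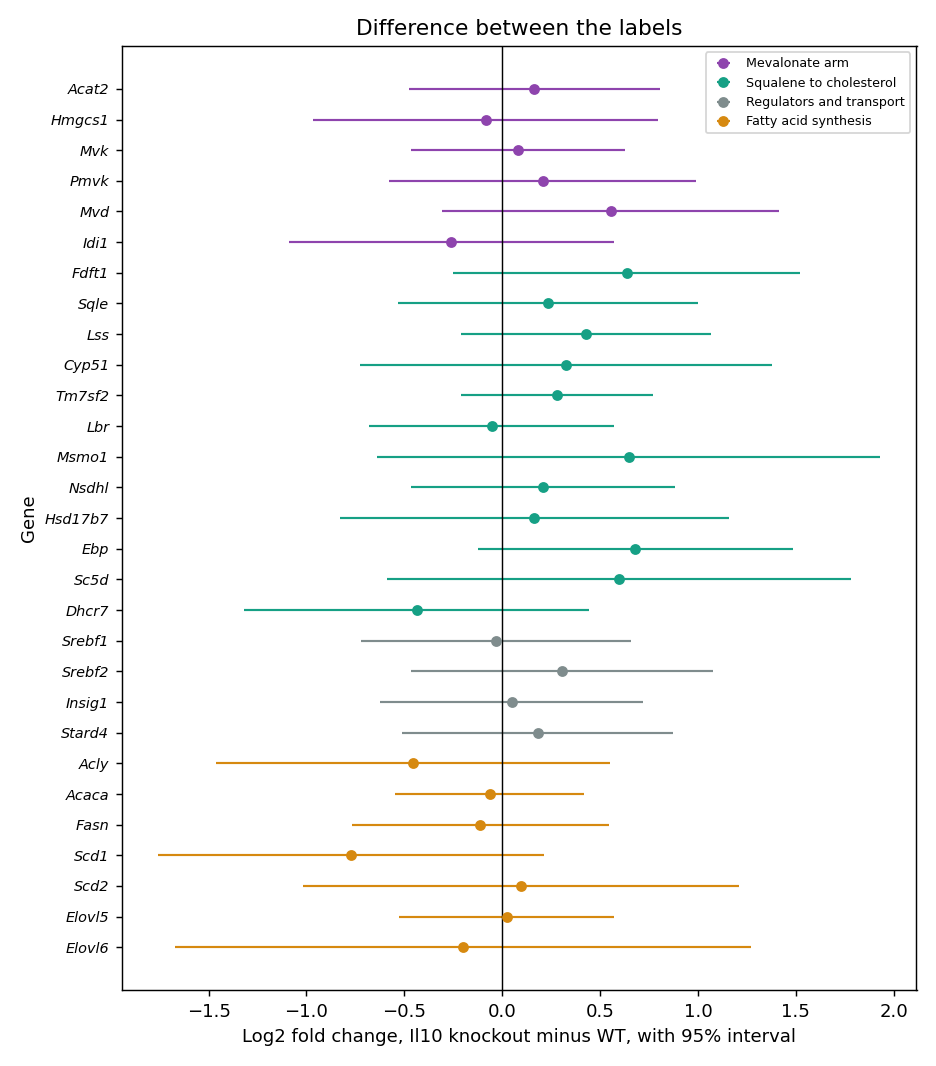
Log2 fold change (Il10 knockout minus WT, x axis) of the 29 tested genes (y axis), with points for limma's estimate, bars for its 95% interval and colours for the 4 branches. Every interval crosses 0, from Scd1 at -0.77 to Ebp at 0.68.

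The mevalonate arm makes farnesyl diphosphate, the branch point to sterols and to protein prenylation. Hmgcs1, the cytosolic HMG-CoA synthase (chromosome 13, 119690379 to 119708260, GRCm38), was the highest of the arm. It was at 61.4, 79.0 and 52.0 FPKM in Il10 knockout-labelled libraries 1 to 3, and at 54.7, 104 and 53.2 FPKM in WT libraries 1 to 3. WT library 2 was the highest and the groups overlapped (log2 fold change -0.085, SE 0.37, adjusted p = 0.961 in limma). Mvd, which decarboxylates mevalonate diphosphate (chromosome 8, 122433601 to 122443422), had the smallest p of the arm. Its values were 28.2, 39.5 and 25.2 FPKM in knockout-labelled libraries, against 22.3, 29.0 and 13.0 FPKM in WT libraries. Library 2 was the highest of both labels, and the difference of 0.55 (SE 0.36, adjusted p = 0.653 in limma) did not pass the threshold. Acat2, the thiolase at the entry, and the mevalonate kinases Mvk and Pmvk lay between 4.63 and 18.2 FPKM in all 6 libraries, with log2 fold changes of 0.16, 0.082 and 0.21. Idi1, the isopentenyl diphosphate isomerase, was lower in level, at 1.99, 4.64 and 1.72 FPKM in knockout-labelled libraries and 2.40, 4.62 and 3.11 FPKM in WT.

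Fdps, farnesyl diphosphate synthase, was the lowest of the 30 genes and was not tested. It was at 0.301, 1.07 and 0.292 FPKM in Il10 knockout-labelled libraries 1 to 3, against 0.398, 0.198 and 0.680 FPKM in WT libraries 1 to 3, from 11 to 71 reads. The processed pseudogene Gm3571 had more: 7.47, 9.90 and 6.08 FPKM in knockout-labelled libraries and 7.19, 8.503 and 5.99 FPKM in WT. Of all stretches of 36 bases in transcripts of Gm3571, 63.0% also occur in annotated transcripts of Fdps (GENCODE M21), so reads of this pair cannot be assigned with certainty. Fdps exons also overlap Gm43738 on the same strand, which had 0 reads in all 6 libraries. How the authors handled reads that fit several places is not given in the sources used here, and the part of this sharing in the low Fdps value was not tested. Sharing also touches Idi1 (26.5% of its 36-base stretches occur in other genes), Acaca (32.6%, mostly with the pseudogene Gm5182) and Fdft1 (30.3%). For Acat2 it was 42.3%, all of them shared with Acat3, and 12.6% of Acat2 stretches also occur in Tcp1. Tcp1 was at 9.65 to 19.8 FPKM in the 6 libraries and Acat3 at 0.0312 to 0.701 FPKM. The separate values of Idi1, Acat2, Acaca and Fdft1 are thus uncertain.

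**Figure D2:**
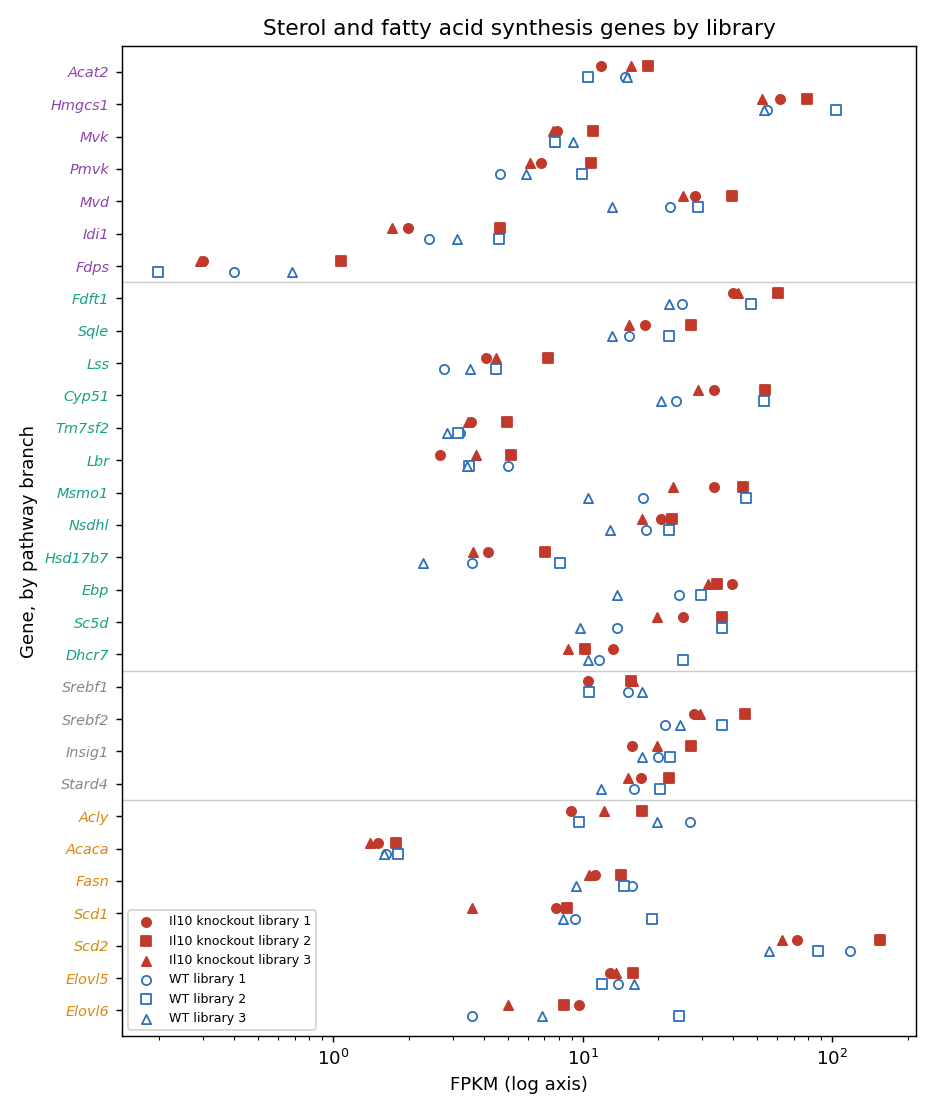
FPKM on a log axis (x) of the 30 genes (y, in pathway order, label colours by branch) in each library, with filled red symbols for libraries labelled Il10 knockout and open blue symbols for WT. The symbols of the labels overlap for all but Ebp and Tm7sf2 among the tested genes, and squares, the libraries numbered 2, often lie farthest right.

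Between squalene and cholesterol, 10 of 12 enzymes had positive log2 fold changes and 0 were called. Ebp, the sterol isomerase late in the route (chromosome X, 8185329 to 8193512), had the largest positive difference of the 29 tested genes. It was at 39.6, 34.5 and 31.6 FPKM in Il10 knockout-labelled libraries 1 to 3, and at 24.3, 29.7 and 13.7 FPKM in WT libraries 1 to 3. All knockout values lay above all WT values, and the log2 fold change was 0.68 (SE 0.34, adjusted p = 0.550 in limma). An exact two-sided permutation test of 3 against 3 libraries cannot go below p = 0.1, so none is given. Without WT library 3 the Ebp difference was 0.37. Tm7sf2, a sterol reductase acting after lanosterol demethylation, also had groups that did not overlap, at 3.56, 4.98 and 3.47 FPKM in knockout-labelled libraries against 3.22, 3.17 and 2.86 FPKM in WT. Its log2 fold change was 0.28 (SE 0.21, adjusted p = 0.698 in limma). The exons of Tm7sf2 overlap those of Vps51 on the same strand over 12.1% of their length, and Vps51 was at 0.326 to 0.897 FPKM. These 2 of 29 genes without overlap, both higher, compare with 8.84% of all genes tested that were higher without overlap and 7.89% that were lower.

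Several enzymes of this stretch had their highest levels in the libraries numbered 2 of both labels. Fdft1, squalene synthase (chromosome 14, 63145150 to 63179578), was at 39.8, 60.8 and 42.0 FPKM in Il10 knockout-labelled libraries, and at 25.0, 47.1 and 22.1 FPKM in WT. WT library 2 lay above knockout libraries 1 and 3 (log2 fold change 0.64, SE 0.37, adjusted p = 0.616 in limma). Fdft1 exons overlap those of Ctsb, a lysosomal protease gene on the opposite strand, over 18.3% of their length. Ctsb was at 97.5 to 119 FPKM in knockout-labelled libraries and 73.7 to 131 FPKM in WT. No strand setting is given, so reads there cannot be told apart. Cyp51, lanosterol demethylase (chromosome 5, 4081145 to 4104746), was at 33.6, 53.8 and 28.9 FPKM in knockout-labelled libraries, against 23.5, 53.4 and 20.6 FPKM in WT (log2 fold change 0.32, SE 0.44). Knockout library 2 and WT library 2 were almost equal in Cyp51 and stood well above the other 4 libraries. Msmo1, the methylsterol monooxygenase, and Sc5d, the lathosterol desaturase, had this pattern too. Msmo1 was at 33.6, 44.0 and 22.9 FPKM in knockout-labelled libraries and 17.5, 44.9 and 10.5 FPKM in WT. Sc5d was at 25.2, 35.9 and 19.8 FPKM in knockout-labelled libraries and 13.7, 35.99 and 9.76 FPKM in WT. WT library 2 was 3.21 times the mean of the other WT libraries for Msmo1 and 3.07 times for Sc5d. In FPKM, Hsd17b7 (the 3-keto-sterol reductase), Sqle (squalene epoxidase) and Nsdhl (a sterol dehydrogenase) were also highest within each label in library 2. So was Lss, lanosterol synthase. In WT libraries 1 and 2, Sqle had 1368 and 1614 reads and Nsdhl 827 and 833, of 13107941 and 15797928 recovered reads. The WT order of Sqle and Nsdhl thus depends on the library size used.

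Dhcr7, the reductase that makes cholesterol from 7-dehydrocholesterol, departed from this pattern. It was at 13.2, 10.2 and 8.71 FPKM in Il10 knockout-labelled libraries 1 to 3, and at 11.6, 25.2 and 10.5 FPKM in WT libraries 1 to 3. WT library 2 was 1.91 times the next library, while knockout library 2 lay below knockout library 1 (log2 fold change -0.44, SE 0.37, adjusted p = 0.740 in limma). Lbr, the lamin B receptor that also reduces sterols, was at 2.68 to 5.14 FPKM in knockout-labelled libraries and 3.43 to 4.98 FPKM in WT.

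**Figure D3:**
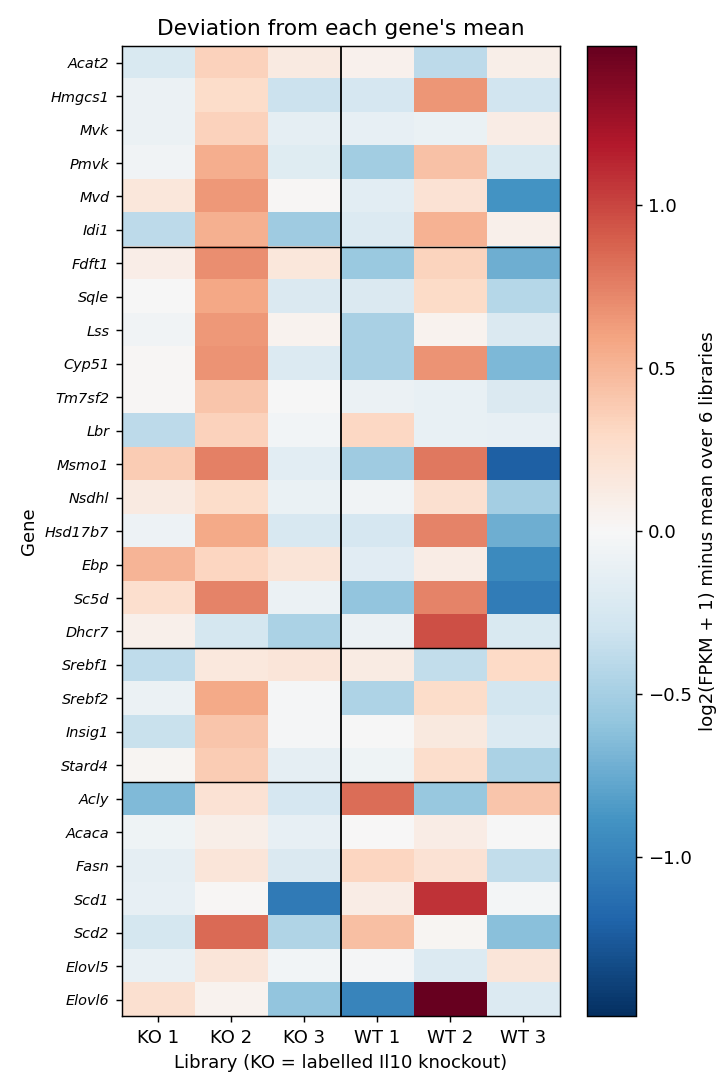
Log2(FPKM + 1) of each tested gene (rows, by branch) minus its mean over the 6 libraries (columns, libraries labelled Il10 knockout left of the line and WT right), red above and blue below the mean. The columns of Il10 knockout library 2 and WT library 2 are red for most sterol enzymes and that of WT library 3 is blue, while Acly, Scd1 and Elovl6 have patterns of their own.

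Across the 29 tested genes the same libraries were often the highest and the lowest of their label. Il10 knockout library 2 was the highest of its label for 25 of 29 genes, and for 16 of the 18 tested sterol enzymes, against 30.8% of all genes tested. Il10 knockout library 3 was the lowest of its label for 20 of the 29, against 35.8% of all genes. WT library 2 was the highest of its label for 20 of 29 and for 14 of the 18 sterol enzymes, against 43.9% of all genes. WT library 3 was the lowest for 19 of the 29, against 36.3%. Of the 29, 24 had their highest value of all in Il10 knockout library 2 or WT library 2, against 43.8% of all genes. These orders, and the shares over all genes, were counted in FPKM alone and depend on the library sizes behind it. Ebp had 905 reads in both WT library 1 and WT library 2, but 24.3 and 29.7 FPKM. Msmo1 had 1733 and 3640 reads there. The orders were not counted on another scale. The highest value was a median of 1.60 times the lowest within knockout-labelled libraries and 1.92 times within WT, against 1.503 and 2.23 times for the 12264 genes above 0 in every library. Without WT library 2 the median log2 fold change from squalene to cholesterol was 0.57, and 0 genes of the 29 were called by limma, against 0.205% of all genes tested in that fit. Fdft1, Ebp, Msmo1, Mvd and Sc5d were then higher at an unadjusted p under 0.05, with log2 fold changes of 0.96, 0.90, 1.199, 0.80 and 1.11, and Acly was lower, at -0.85. These 5 higher and 1 lower of 29 compare with 14.8% higher and 8.77% lower over all genes in that fit, so the counts were near the background. Their adjusted p-values in limma lay between 0.144 and 0.209.

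Markers of cell types also differed between these libraries. The 12 epithelial markers summed to 14940, 13650 and 10150 FPKM in Il10 knockout-labelled libraries 1 to 3, and to 6539, 14750 and 2630 FPKM in WT libraries 1 to 3. The 12 enzymes from squalene to cholesterol summed to 238, 313 and 202 FPKM in knockout-labelled libraries and to 163, 300 and 125 FPKM in WT. In WT, both sums ran in the same order, with library 2 highest and library 3 lowest. Among knockout-labelled libraries they did not, since library 1 had the highest epithelial sum and library 2 the highest sterol sum. Of the 12 epithelial markers 11 had positive log2 fold changes, with a median of 0.83. Smooth muscle markers, highest in WT library 3, had 0 of 10 positive log2 fold changes, with a median of -2.13. Limma called 0 markers of either list, and the part of composition in the sterol values was not tested. The 8 markers of proliferating cells summed to 69.9, 83.6 and 92.9 FPKM in knockout-labelled libraries and 104, 46.4 and 62.9 FPKM in WT, lowest in WT library 2, where sterol enzymes were high.

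**Figure D4:**
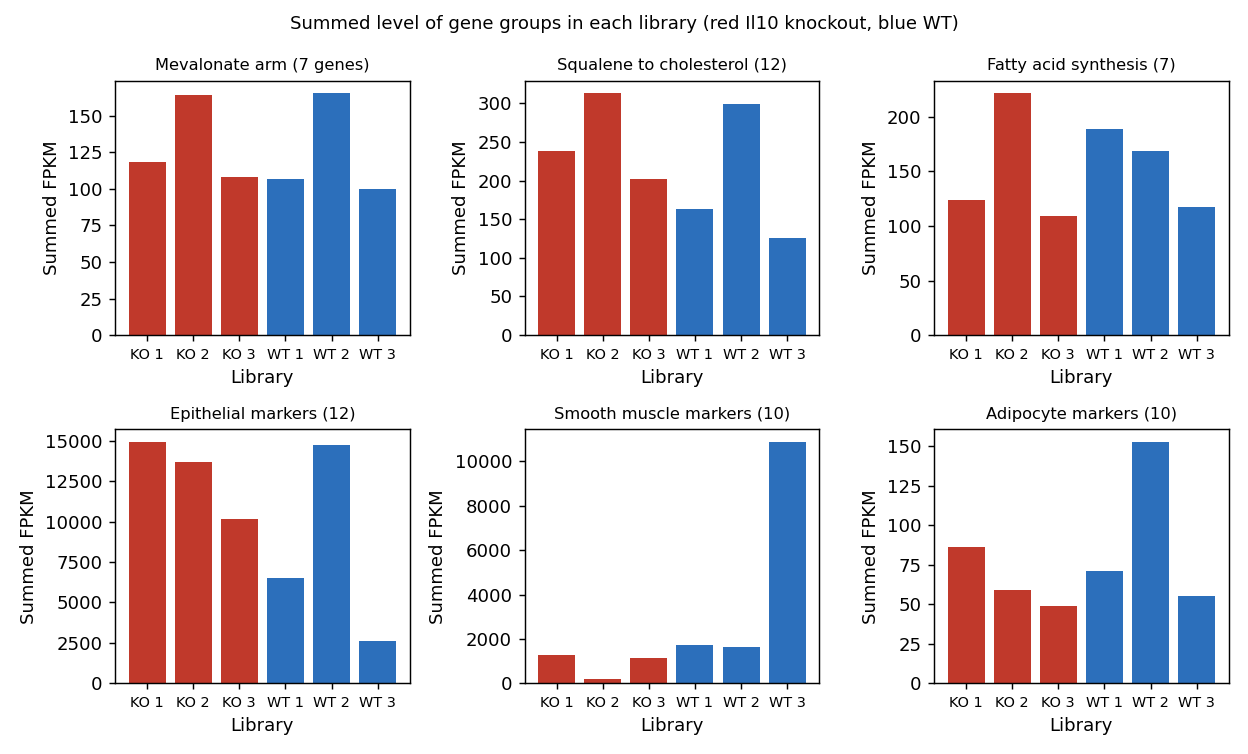
Summed FPKM (y axis, from 0) of 3 branches of the pathway and of 3 marker lists in each library (x axis), with red bars for libraries labelled Il10 knockout and blue bars for WT. The squalene to cholesterol sum peaks at 313 FPKM in Il10 knockout library 2 and 300 FPKM in WT library 2, and the smooth muscle sum at 10880 FPKM in WT library 3.

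None of the 4 regulators and carriers was called by limma, and none had an unadjusted p under 0.05. Srebf2, which encodes SREBP2, the main activator of sterol genes (chromosome 15, 82147181 to 82205379), was at 28.0, 44.6 and 29.5 FPKM in Il10 knockout-labelled libraries and 21.4, 36.2 and 24.6 FPKM in WT. Library 2 was the highest of each label (log2 fold change 0.31, SE 0.32, adjusted p = 0.8004 in limma). Srebf1, which encodes SREBP1, ran otherwise, at 10.5, 15.5 and 15.8 FPKM in knockout-labelled libraries against 15.1, 10.5 and 17.3 FPKM in WT (log2 fold change -0.031). Its WT library 2 was the lowest of the WT libraries. Insig1, a sterol-dependent retention factor and itself an SREBP target, was at 15.8 to 27.1 FPKM in knockout-labelled libraries and 17.2 to 22.3 FPKM in WT. Stard4, a cytosolic sterol carrier, was at 15.2 to 22.1 FPKM in knockout-labelled libraries and 11.8 to 20.4 FPKM in WT.

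Among fatty acid genes 5 of 7 had negative log2 fold changes and 0 were called. Of the 7, 4 were negative on the TPM scale and all 7 after quantile normalization or without Il10 knockout library 2. Scd1, a stearoyl-CoA desaturase (chromosome 19, 44394451 to 44407709), had the most negative difference of the 29 tested genes. It was at 7.77, 8.61 and 3.58 FPKM in Il10 knockout-labelled libraries 1 to 3, and at 9.28, 19.0 and 8.34 FPKM in WT libraries 1 to 3. The groups overlapped between knockout library 2 and WT library 3 (log2 fold change -0.77, SE 0.42, adjusted p = 0.578 in limma), and the value was -0.44 without knockout library 3 and -0.43 without WT library 2. Its relative Scd2 (chromosome 19, 44293676 to 44306864) was the most abundant of the 30 genes, with a mean of 92.0 FPKM against 9.43 FPKM for Scd1 over all libraries. Scd2 was at 71.8, 156 and 63.0 FPKM in knockout-labelled libraries and 118, 87.7 and 55.6 FPKM in WT (log2 fold change 0.10, SE 0.47). The highest was Il10 knockout library 2 for Scd2 and WT library 2 for Scd1. The pair share sequence, with 4.46% of the 36-base stretches of Scd1 also in Scd2.

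Elovl6, an elongase of saturated chains, was at 9.62, 8.39 and 4.998 FPKM in Il10 knockout-labelled libraries and 3.58, 24.4 and 6.82 FPKM in WT. WT library 2 was 2.53 times the next library, and the WT libraries spanned a 6.80-fold range, the widest within a label among the 29. Acly, which splits citrate to acetyl-CoA, was at 8.94, 17.3 and 12.2 FPKM in knockout-labelled libraries and 26.9, 9.63 and 19.8 FPKM in WT (log2 fold change -0.46, SE 0.42). Within WT it was lowest in library 2, where most sterol enzymes were highest. Fasn, fatty acid synthase, was at 10.6 to 14.2 FPKM in knockout-labelled libraries and 9.38 to 15.8 FPKM in WT. Acaca, the acetyl-CoA carboxylase, was at 1.40 to 1.78 FPKM in knockout-labelled libraries and 1.60 to 1.82 FPKM in WT. Elovl5, an elongase of polyunsaturated chains, was at 12.9 to 15.9 FPKM in knockout-labelled libraries and 11.96 to 15.95 FPKM in WT. Fat cells also express fatty acid genes strongly, and their defining marker Adipoq was at 0.918, 0 and 0 FPKM in knockout-labelled libraries and 1.48, 0 and 1.23 FPKM in WT. The 10 adipocyte markers summed to 86.0, 58.8 and 48.9 FPKM in knockout-labelled libraries 1 to 3 and to 70.9, 153 and 55.5 FPKM in WT libraries 1 to 3. The sum was thus highest in WT library 2, where Scd1 and Elovl6 were also highest. There Pnpla2 and Lipe, which encode lipases, were at 105 and 4.83 FPKM and Cidec, a lipid droplet gene, at 39.4 FPKM, the highest of the 6 libraries for each, while 4 of the 10 markers, Adipoq among them, were at 0 FPKM. Averaged as log2(FPKM + 1), the 10 markers were at 1.968, 1.116 and 1.236 in knockout-labelled libraries 1 to 3. In WT libraries 1 to 3 the average was 2.065, 1.761 and 1.921. By that average WT library 2 was the lowest of the WT libraries, so its place depended on the measure. The part of fat tissue in the fatty acid gene values was not tested.

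Other genes of these pathways were not called either. Of 12 further genes of sterol synthesis and uptake, 9 were tested, with 6 positive, 3 negative and 0 called by limma. Of 9 genes of SREBP processing, all were tested, with 4 positive and 5 negative. Of 25 further fatty acid and glyceride genes, 17 were tested, with 9 positive and 8 negative. In these 3 lists 0 genes were called and 0 had an unadjusted p under 0.05, against 0.182% and 10.2% of all genes tested. Acsl3, an acyl-CoA synthetase, and Acss2, the acetyl-CoA synthetase fed by acetate, were the tested members of these lists whose groups did not overlap. Both were lower, which makes 2 of the 17 fatty acid and glyceride genes and 0 of 9 in each of the other lists. Over all genes tested, 7.89% were lower without overlap and 8.84% higher. Acsl3 was at 10.8, 17.4 and 17.5 FPKM in Il10 knockout-labelled libraries and 20.3, 119 and 23.6 FPKM in WT, with WT library 2 far above the rest (log2 fold change -1.32, SE 0.67, adjusted p = 0.559 in limma). Acss2 was at 2.35, 3.20 and 3.31 FPKM in knockout-labelled libraries and 6.03, 3.43 and 3.58 FPKM in WT (log2 fold change -0.41, SE 0.26).

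Of 13 genes of sterol efflux, esterification and oxysterols, 11 were tested, with 9 positive, 2 negative and 0 called by limma. At an unadjusted p under 0.05, 2 of the 11 were higher and 0 lower, against 6.14% and 4.03% of all genes tested. Groups did not overlap for 3 of the 11 (Soat2, Ch25h and Nr1h2), all higher, against 8.84% of all genes tested. Soat2, which esterifies cholesterol for storage and export, was at 1.40, 3.39 and 2.88 FPKM in Il10 knockout-labelled libraries and 0.952, 0.445 and 0.0699 FPKM in WT. The groups did not overlap, and limma put the difference at 1.25 on the log2 scale (SE 0.35, adjusted p = 0.335), from 39 to 118 reads in knockout-labelled libraries and 2 to 34 in WT. Ch25h, the cholesterol 25-hydroxylase, was at 1.06, 1.18 and 3.82 FPKM in knockout-labelled libraries against 0.918, 0.281 and 0 FPKM in WT (log2 fold change 1.04, SE 0.43, adjusted p = 0.486 in limma). Nr1h2, which encodes the oxysterol receptor LXR beta, was at 27.0 to 29.4 FPKM in knockout-labelled libraries and 21.2 to 25.0 FPKM in WT (log2 fold change 0.23, SE 0.23). Limma called 2 of 6 neutrophil markers higher in knockout-labelled libraries. The neutrophil markers summed to 1549, 1185 and 560 FPKM in knockout-labelled libraries, against 1.38, 1.32 and 1.34 FPKM in WT. The 8 macrophage and monocyte markers summed to 264, 566 and 419 FPKM in knockout-labelled libraries and 351, 107 and 139 FPKM in WT, with 0 called. The part of these cells in the Soat2 and Ch25h values was not tested.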

How the data were processed

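Colon RNA of 6 libraries was measured, 3 labelled Il10 knockout and 3 WT, grouped by sample title. Per the labels' protocols, libraries were made with an NEBNext Ultra RNA kit. Per the submitters' processing notes, Bowtie 0.12.2 was used and the builds hg38 and mm8 are named with no role. No source used here gives the counting tool or the strand setting. The authors deposited FPKM values for 54532 genes. Coordinates of 27 of the 30 genes were identical in GENCODE M21 (GRCm38), so positions are given in that build. Reads were recovered as FPKM times length over the value of a single read in that library, and 100% of values above 0 came out whole within 0.01. The lowest count of a tested gene of the 29 in any library was 88 reads. Counting error is the only error these counts cover.

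Values were tested as log2(FPKM + 1), a scale that understates the change of low genes, for the 12668 genes averaging 1 FPKM or more, with limma 3.58.1 (mean trend, no replicate block) in R 4.3.3, adjusted over all genes. Alternatives were a pseudocount of 0.1, no filter, a minimum average of 5 FPKM, quantile normalization, TPM, no trend, voom, a replicate block and each library left out in turn. Motifs and 36-base sharing were counted with Python 3.11.15. The members, lists and tests were chosen with earlier results of these data known. Values in every library are given for genes without overlap, the 5 most abundant and the smallest p of each branch. Of the other pathway genes, those without overlap are given. Values in every library of Idi1, Fdps, Msmo1, Sc5d, Dhcr7, Srebf1, Elovl6 and Acly were added after they were seen.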

Additional observations from a re-analysis of the deposited data

How the results depend on the processing

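Of the 29 tested genes, 0 were called under any of the 14 alternatives, and adjusted p-values ranged from 0.144 to 1.00. The lowest adjusted p came without WT library 2, where Fdft1, Sc5d, Msmo1, Ebp and Mvd were higher and Acly lower at an unadjusted p under 0.05. These 6 of 29 compare with 23.6% of all genes in that fit. The median log2 fold change of the 29 genes lay between 0.030 (quantile normalization) and 0.28 (TPM), and between -0.059 and 0.29 with a library left out. Positive signs numbered 16 of 29 after quantile normalization and 23 with TPM, against 19. The median over all genes was 0.15 with TPM, against 0.039 on the FPKM scale, so its values are best read relative to that shift.

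Genes called over the whole table numbered 23, and 4 with no filter, 46 with TPM, 2 with voom and 7 with a replicate block. They numbered 4 to 29 with a library left out. Deviations from the label mean correlated across genes at -0.15, 0.18 and 0.40 between same-numbered libraries of the 2 labels. Between differently numbered libraries they correlated at -0.388 to 0.177. These values do not settle whether replicate numbers pair the libraries. With the block, 1 of the 29, Scd1, had an unadjusted p under 0.05, against 11.6% of all genes.

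Signs changed in 7 cases with another scaling: to -0.17 for Scd2, -0.073 for Insig1 and -0.10 for Elovl5 after quantile normalization, and to 0.023 for Hmgcs1, 0.075 for Srebf1, 0.037 for Lbr and 0.00495 for Acaca with TPM. With a library left out, 12 genes changed sign. Their log2 fold changes ran from -0.074 to 0.12 for Elovl5, -0.74 to 0.49 for Elovl6, -0.32 to 0.020 for Fasn, -0.25 to 0.22 for Hmgcs1, -0.16 to 0.57 for Hsd17b7, -0.15 to 0.23 for Insig1, -0.24 to 0.13 for Lbr, -0.069 to 0.17 for Mvk, -0.011 to 0.48 for Pmvk, -0.30 to 0.35 for Scd2, -0.22 to 0.15 for Srebf1 and -0.011 to 0.36 for Stard4. The cause was not tested. In all, 16 of the 29 kept their sign under every alternative that tested them.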
